A study of Mus musculus with 20 samples.

Results

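The long noncoding RNA (lncRNA) genes Malat1, Neat1, Meg3, Rian, Miat and Snhg11 were followed in single-cell libraries of the mouse basolateral amygdala (BLA). They were taken by gene symbol from a list that was chosen by measured values of these same libraries, so their abundance, their differences between cell types and their differences with the mitochondrial share of a barcode are given below as description, with no test. Of the 6 listed genes, 5 were among the 31053 features of each library under their symbol, and Rian was not analysed here.

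The study exposed male wild type C57BL/6 mice to corticosterone (CORT) as a model of chronic stress and then gave ketamine, and asked which changes in CORT-treated mice were turned back 24 h after the injection. The 10 BLA libraries, 1 per mouse and all from mice aged 13 weeks by their labels, fell into 4 groups. BCD/Sal (2 mice) drank the vehicle 2-hydroxypropyl cyclodextrin (BCD) over 6 weeks and were then injected with saline. BCD/Ket (3 mice) received the vehicle and then ketamine at 10 mg/kg intraperitoneally. CORT/Sal (2 mice) received CORT at 35 µg/ml for 6 weeks and then saline, and CORT/Ket (3 mice) received CORT and then ketamine. The methods of the study name the control drink both as BCD and as plain water, and what the vehicle mice drank is therefore given here by the group label. Tissue was dissociated enzymatically into whole cells and captured in droplets, and counts are unique molecular identifiers (UMIs), each standing for 1 captured RNA molecule. No separate litters, cages or capture days are named for the mice.

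Malat1 RNA stays in the nucleus, where it gathers at nuclear speckles, the sites that store splicing factors. Neat1 RNA is the scaffold of paraspeckles, nuclear bodies held together by RNA-binding proteins, and is transcribed next to Malat1. Meg3 and Rian are expressed from the maternal chromosome of the imprinted Dlk1-Dio3 domain, Miat is a nuclear RNA first described in neurons and in the heart, and Snhg11 is a host gene of small nucleolar RNAs that is expressed in the brain.

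On the mouse assembly NCBIM37 (mm9), which the study named for its alignment, Malat1 lies on chromosome 19 from 5795690 to 5802671 on the minus strand and Neat1 lies 22036 bases away on the same strand, from 5824708 to 5845478. Meg3 spans chromosome 12 from 110779211 to 110809936 on the plus strand, with Rian at 110842155 to 110899919 and Mirg, another noncoding gene of the domain, at 110973191 to 110987665. Of the microRNA hairpins of RefSeq, 1 lies within Meg3 (Mir770), 3 lie within Rian and 10 within Mirg. Miat lies on chromosome 5 from 112642248 to 112657968 on the minus strand and Snhg11 on chromosome 2 from 158201374 to 158211881 on the plus strand. Positions are those of the GENCODE annotation of that assembly, which gives Miat and Mirg other gene identifiers than the feature lists do, so these genes may have been counted over other gene models.

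The droplet method primes on runs of A, and Malat1 has no poly(A) tail, its 3′ end being a genomic A-rich tract held in a triple helix. Its exons on this assembly hold 1 run of at least 10 A, 12 bases long and 298 bases before the annotated 3′ end. The stretch around it is shown because it is the one place in the transcript with such a run, and capitals mark the run. The letters after it run into the tRNA-like piece that is cut off from the Malat1 transcript. It was read from chr19:5795958-5796029 of NCBIM37, minus strand, 5′ to 3′.

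Malat1: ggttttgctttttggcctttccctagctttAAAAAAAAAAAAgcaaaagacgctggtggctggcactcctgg

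Meg3 held 6 such runs in its exons, the longest of 16 A, while Miat, Snhg11 and Neat1 held 0 in theirs. Miat is known for repeats of the letters TACTAAC, which the splicing factor SF1 binds, and its exons held 6 copies on the transcribed strand, against 1 in Neat1 and 0 in Malat1, Meg3 and Snhg11. The stretch of Miat with 3 copies, in capitals, is shown from chr5:112646339-112646470 of NCBIM37, minus strand.

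Miat: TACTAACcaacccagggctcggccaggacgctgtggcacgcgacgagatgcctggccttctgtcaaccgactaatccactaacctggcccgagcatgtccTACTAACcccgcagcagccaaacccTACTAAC

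The promoter windows of RefSeq, 250 bases before to 50 bases after a start on GRCm38.p6, are shown for Meg3 and Snhg11, because these were the members whose levels ran together across cell types. Windows were found for Malat1, Meg3, Miat, Snhg11 and Rian, not for Neat1. Searched on both strands were the cAMP response element TGACGTCA and its core TGACG, the TATA box TATAAA, the CCAAT box CCAAT and the GC box GGGCGG, of which the core lies within the full element. They occurred in 1.79%, 20.8%, 13.6%, 37.4% and 35.7% of the 32851 windows of this length. The window of Meg3 at chr12:109540746-109541045, plus strand, held a full cAMP response element, a TATA box and a CCAAT box, marked in capitals. A second window of Meg3, at chr12:109545148-109545447, plus strand, held none of the searched letters and had a GC content of 50.3%. The window of Snhg11 at chr2:158375463-158375762, plus strand, held none of these letters, and its GC content was 60% against 53.7% for the first window of Meg3.

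Meg3: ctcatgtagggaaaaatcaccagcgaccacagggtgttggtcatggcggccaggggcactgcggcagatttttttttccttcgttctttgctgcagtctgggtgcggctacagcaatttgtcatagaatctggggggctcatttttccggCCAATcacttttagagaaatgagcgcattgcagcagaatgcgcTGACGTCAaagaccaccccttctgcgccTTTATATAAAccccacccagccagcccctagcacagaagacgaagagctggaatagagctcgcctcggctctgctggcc

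Snhg11: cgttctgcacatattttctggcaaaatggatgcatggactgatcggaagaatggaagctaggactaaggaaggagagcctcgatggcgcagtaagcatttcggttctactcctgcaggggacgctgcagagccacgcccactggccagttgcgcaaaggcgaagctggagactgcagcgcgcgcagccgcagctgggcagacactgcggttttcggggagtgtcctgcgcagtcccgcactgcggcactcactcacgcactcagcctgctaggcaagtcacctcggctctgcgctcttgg

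The libraries held 28722 barcodes and 811628 to 7281768 UMIs each. Barcodes with at least 200 genes and a mitochondrial share of UMIs no higher than the study allowed numbered 8305 (135 to 2397 per library), and are called the low side, while 16308 barcodes over 25% are called the high side and 2435 lay between. A small set of 120 of the 28595 distinct barcode sequences occurred in more than 1 library, at most 20 between any pair. The library of mouse 9970 (CORT/Sal) stood apart: 97.1% of its barcodes were under the limit against 16.8% to 31.0% in the others, and 2348 of its 2397 kept barcodes fell into 1 cluster that no marker set named, led by Gng13, Lrrc17 and Cnih2. The libraries of mice 9946, 9947, 9967 and 9970 held fewer than 10 microglia. Results are given with these libraries and, where they moved, without them.

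Malat1 took 1.77% to 5.29% of the non-mitochondrial UMIs of a library. Meg3 took 0.140% to 1.49%, Snhg11 0.0459% to 0.391%, Miat 0.00401% to 0.0399% and Neat1 0.0140% to 0.0299%. Each gene is from here on given as its UMIs per 1000000 non-mitochondrial UMIs (CPM) in summed barcodes, and compared with itself, since levels of different genes on this scale are not comparable per length.

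The nuclear RNA Malat1 was higher where the mitochondrial share was low. On the low and the high side, its level in BCD/Sal was 78883 and 12175 CPM in mouse 9901 and 16853 and 21467 CPM in mouse 9947. In BCD/Ket it was 42250 and 34252 CPM in mouse 9946, 77107 and 5836 CPM in mouse 9949, and 62751 and 17838 CPM in mouse 9986. In CORT/Sal the pair was 56708 and 7592 CPM in mouse 9969, and mouse 9970 had too few barcodes over 25%, 7, to give one. Malat1 was thus lower on the high side in all of these libraries except 9947, and the size ran from 1.23-fold in 9946 to 13.2-fold in 9949. In CORT/Ket the levels were 48356 and 22164 CPM in mouse 9967, 51735 and 5760 CPM in mouse 9968, and 64843 and 13206 CPM in mouse 9971. Over the 9 libraries the median difference of log2(CPM + 10), low minus high, was 2.30 with an SD of 1.36, and 8 of 9 libraries were higher on the low side.

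Neat1, the RNA of paraspeckles, showed a difference of 1.91 (SD 1.2), with 7 of 9 libraries higher on the low side. Its level fell from 489 to 61.8 CPM in mouse 9949 and from 290 to 38.2 CPM in mouse 9901, while it was 160 and 274 CPM in mouse 9947 and 143 and 146 CPM in mouse 9967. Neat1 in those last libraries rests on 107 and 76 UMIs and on 38 and 17 UMIs, so counting error alone is wide there.

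The neuronal members differed less. Snhg11 had a median difference of 1.28 (SD 0.817, 8 of 9 libraries higher on the low side), Meg3 of 0.84 (SD 1.00, 7 of 9) and Miat of 0.63 (SD 0.830, 7 of 9). For Meg3 the median level was 9685 CPM on the low side and 5502 CPM on the high side, for Snhg11 3223 and 1440 CPM, and for Miat 237 and 146 CPM. Mouse 9946 ran the other way for all 3, with Meg3 at 9926 and 15029 CPM, Snhg11 at 3223 and 3850 CPM and Miat at 250 and 365 CPM. With at least 500 genes a barcode the differences were 0.64 for Snhg11, 0.32 for Meg3 and 0.23 for Miat, and in the 6 libraries with at least 10 microglia they were 1.43, 1.42 and 0.93. Against the median of 0.31 over the 8373 genes that averaged at least 20 CPM, of which 65.5% were higher on the low side, Malat1 lay at percentile 97.5, Neat1 at 95.9, Snhg11 at 89.5, Meg3 at 76.8 and Miat at 67.2.

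**Figure D1:**
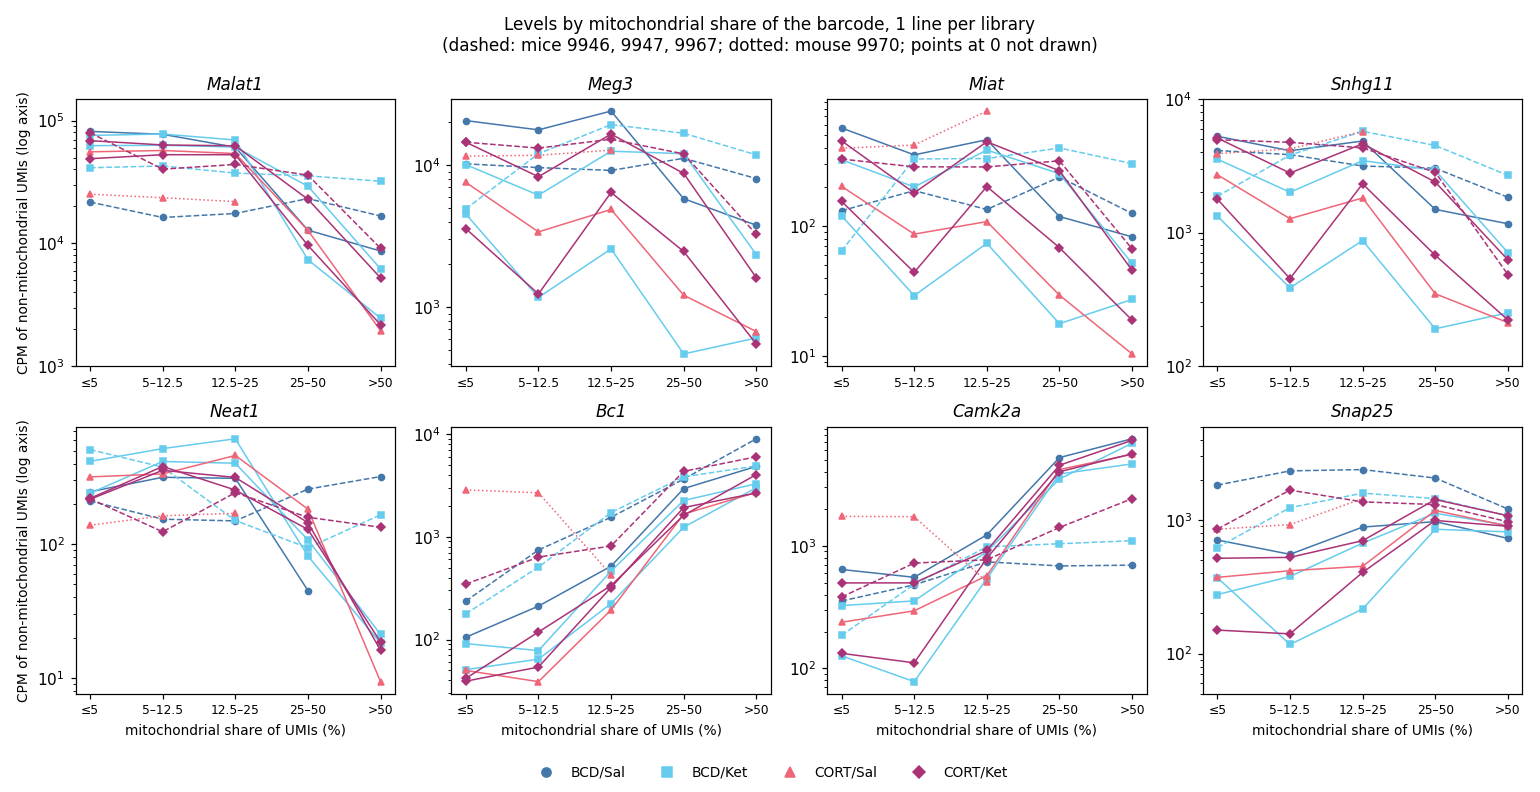
Level of each analysed member and of the comparison genes Bc1, Camk2a and Snap25 (CPM, log axis) in 5 ranges of the mitochondrial share of the barcode (percent), 1 line per library with symbols for the 4 groups. Malat1 stayed high up to 25% and fell beyond it in most libraries, from 69408 CPM in the range that ends at 25% to 7359 CPM at 25 to 50% in mouse 9949, while the dashed line of mouse 9946 stayed between 32035 and 42665 CPM, and Bc1 rose over the same ranges.

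In most libraries Malat1 declined across the bin edge of 25%, beyond the limit of the study, as the plot by mitochondrial range shows. Across that edge it rose from 17500 to 23137 CPM in mouse 9947 and went from 37331 to 35455 CPM in mouse 9946. In mouse 9967 it went from 43889 to 35938 CPM and was at 9109 CPM over 50%. In mouse 9949 the level of Malat1 was 75683, 77655 and 69408 CPM in the 3 bins up to 25%, then 7359 and 2457 CPM. In mouse 9971 it was 68586, 63265 and 62243 CPM, then 22858 and 5228 CPM. Meg3 was less even below that edge in mouse 9971, at 14499, 8292, 16549, 8755 and 1615 CPM over the same bins. In mouse 9901 it also fell across the edge, with 20596, 17719, 24031, 5809 and 3778 CPM. In mouse 9986 it hardly changed there, from 12535 to 12054 CPM, and was at 2349 CPM over 50%.

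Lists of genes with known places in the cell were set beside the members. All 10 nuclear speckle and splicing genes had a median difference above 0 (list median 0.85), among them Son, a speckle scaffold protein, at 1.57 and Snrnp70, a protein of the U1 particle, at 1.79. Of the 9 paraspeckle protein genes 7 were above 0, while Rbm14 was at -0.19 and Nudt21 at -0.37. Of 5 other lncRNAs measured 4 were above 0, with Kcnq1ot1, the antisense RNA of an imprinted domain, at 1.27. The dendrite-localized RNAs were the reverse, with 0 of 9 above 0 and a median of -2.90, led by Bc1, a cytoplasmic RNA carried into dendrites, at -4.80 with 0 of 9 libraries higher on the low side, and Camk2a at -3.57. Neuronal mRNAs had 0 of 7 above 0, and of 4 snoRNA host genes 1 was, Snhg20 at 1.21, while Snhg6 was at -2.26 and Snhg12 at -1.55, unlike Snhg11. Genes of the dissociation response were above 0 in 9 of 9, with Fos at 2.73. Hemoglobin genes were above 0 in 4 of 4. All values are medians over the 9 libraries, and the cell types on the 2 sides were not the same.

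The Malat1 difference was also seen in single barcodes. Among barcodes with at least 300 non-mitochondrial UMIs, the median Malat1 share on the low side was between 1.63% (mouse 9947) and 7.10% (mouse 9901). On the high side, barcodes under 1% Malat1 made up 67.3% of those in mouse 9901, 94.6% in 9949, 77.6% in 9986, 94.0% in 9969, 94.8% in 9968 and 84.1% in 9971. The share was 8.15% in mouse 9946, 28.8% in mouse 9947 and 53.8% in mouse 9967. On the low side the same class made up 1.26% to 5.93% of barcodes in all libraries but mouse 9947, at 20%.

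**Figure D2:**
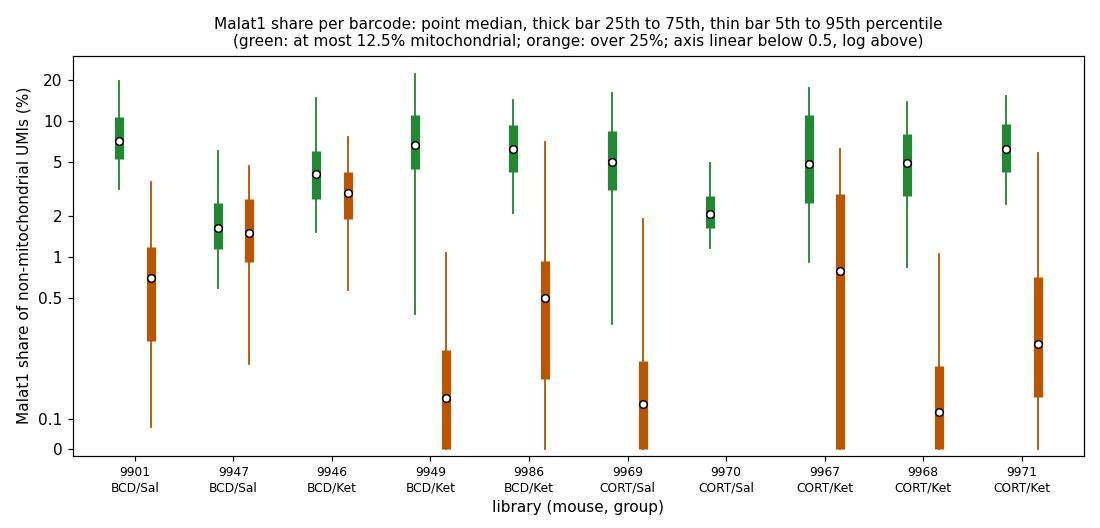
Malat1 share of the non-mitochondrial UMIs of single barcodes (percent, linear below 0.5 and log above) in each library, the low side in green and the high side, over 25% mitochondrial, in orange, with the median as a point and bars for the 25th to 75th and 5th to 95th percentiles. The high side had a median of 0.170% in mouse 9949 against 6.597% on its low side, while in mouse 9946 the medians were 2.94% and 4.05%.

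Barcodes over 25% mitochondrial that held at least 2% Malat1 also held the other members at higher levels than those under 1% Malat1. In mouse 9986, 300 such barcodes had Meg3 at 31247 CPM, Snhg11 at 7169 CPM, Miat at 648 CPM and Neat1 at 266 CPM, while the 1962 barcodes under 1% Malat1 had 1200, 438, 24.8 and 11.5 CPM. Bc1 went the other way, at 496 and 2431 CPM, and so did Camk2a, at 1112 and 6266 CPM. The first set also had a lower median mitochondrial share, 36.0% against 52.0%, and more non-mitochondrial UMIs, 769 against 481. With at least 2% Malat1, Meg3 was lower in mice 9949 and 9969 than in 9986, at 2592 and 5588 CPM. Neat1 was higher there, at 944 and 1070 CPM. In mouse 9946 Bc1 was at 4160 CPM with at least 2% Malat1 and 5032 CPM under 1%, a smaller difference. In mouse 9947 both ran the opposite way, with Bc1 at 4871 and 4181 CPM and Camk2a at 770 and 373 CPM, and Meg3 was at 11738 and 9434 CPM. These sets were cut on Malat1 itself, and the levels are a description of them.

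Because the 2 sides differed in cell types, the comparison was repeated among barcodes that marker UMIs alone put in 1 class (at least 3 UMIs of at least 2 marker genes). This gave a class to 53.1% of barcodes on the low side and 24.7% on the high side. The class was the same as that of the cluster in 98.4% of the 4408 kept barcodes that had both. Clusters were named from the same markers and cover the low side only, so this agreement does not check the high side. In excitatory neurons, 652 barcodes on the low side and 2467 on the high side, the median difference was 1.95 for Malat1 (7 of 9 libraries higher on the low side), 1.53 for Meg3, 1.91 for Miat and 1.86 for Snhg11, with 9 of 9 libraries for each of these last genes. Neat1 was at -0.11, with 3 of 9 libraries higher. Among these marker-defined barcodes the neuronal members therefore differed by about as much as Malat1. The excitatory markers included Camk2a and Nrgn, which over all barcodes were themselves higher on the high side (-3.57 and -2.15). Whether barcodes on the high side were put in this class through these RNAs was not tested.

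Astrocytes gave another picture. With 1312 and 1291 barcodes in 8 libraries, Malat1 was at 2.43 and Neat1 at 2.34, both higher on the low side in 8 of 8 libraries. Meg3 was at -2.15 and Snhg11 at -1.99, both in 0 of 8 libraries, and Miat was at -1.02 (2 of 8). Marker-defined astrocyte barcodes over 25% mitochondrial thus carried more of the neuronal RNAs than those under the limit, and in 2 libraries the low side held no Meg3 UMI, where the size depends on the added 10 CPM. Whether they hold RNA of more than 1 cell was not tested. The other classes with enough barcodes were small, and Malat1 hardly differed there. Inhibitory neurons had 44 and 31 barcodes in 2 libraries, with Malat1 at 0.07, Meg3 at -0.02, Miat at 1.47, Snhg11 at 0.33 and Neat1 at 0. Microglia had 149 and 12 barcodes in 1 library, with Malat1 at 0.04, Neat1 at -0.31, Meg3 at -3.84, Miat at -1.41 and Snhg11 at -3.27.

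**Figure D3:**
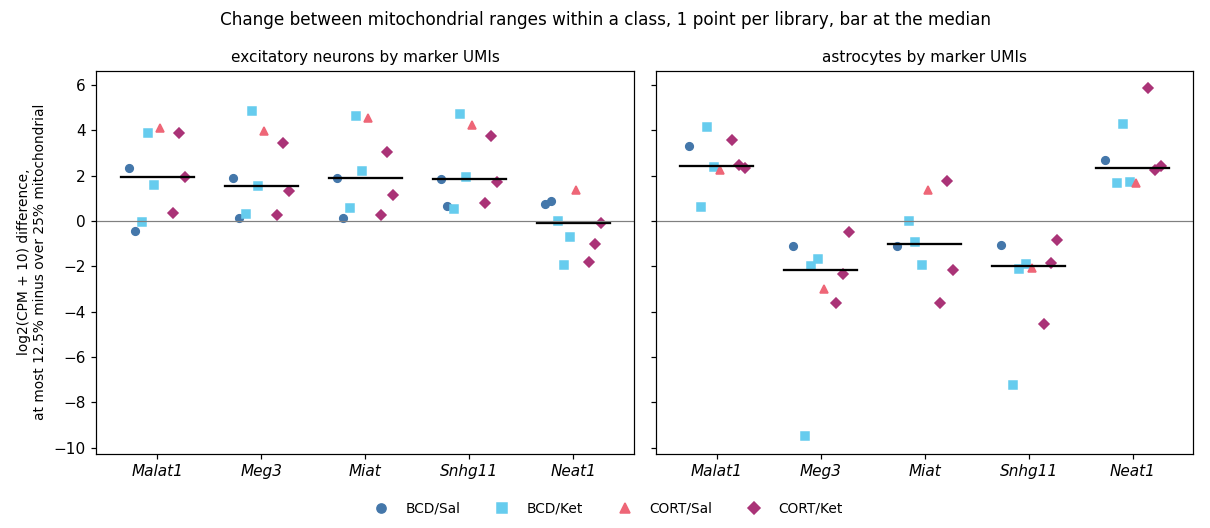
Difference of log2(CPM + 10) between the low side and the high side (over 25% mitochondrial UMIs) within excitatory neurons and within astrocytes set by marker UMIs, 1 point per library and a bar at the median. Points above 0 are higher on the low side: Malat1 lay there in 7 of 9 and 8 of 8 libraries, while Meg3 and Snhg11 lay there in all 9 libraries of excitatory neurons and in 0 of 8 of astrocytes.

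The kept barcodes were clustered without the 5 members, and clusters were named from marker genes, so each class name stands for barcodes like that type by markers. Markers found in the classes included Slc17a7 and Neurod2 in 1 cluster of excitatory neurons and Slc17a6 and Tbr1 in the other, Gad2 and Slc32a1 in both clusters of inhibitory neurons, Gja1 in both clusters of astrocytes (Aqp4 in 1 of them), Pdgfra in oligodendrocyte precursor cells (OPCs), Mog in oligodendrocytes, P2ry12 in microglia and Cldn5 in endothelial cells. Cell classes with at least 10 barcodes in a library gave 1 level per library. With a few barcodes in some libraries, less RNA per cell and fewer cells cannot be told apart in these sums.

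**Figure D4:**
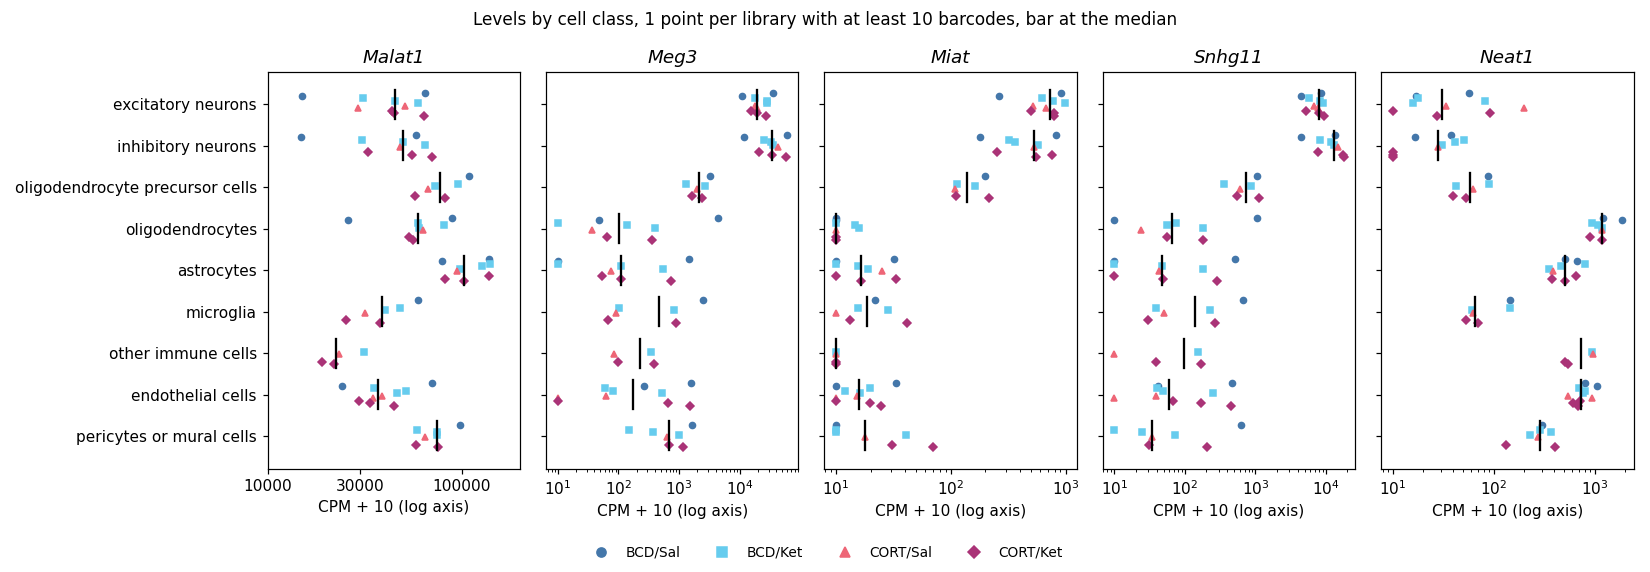
Level of each analysed member (CPM + 10, log axis) by cell class, 1 point per library with at least 10 barcodes of the class, symbols for the 4 groups and a bar at the median. Meg3, Miat and Snhg11 lay highest in both neuron classes with OPCs next, Neat1 lay highest in oligodendrocytes with a median of 1168 CPM and lowest in neurons, and Malat1 was spread over a narrower range with astrocytes on top.

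Malat1 was found in every class. Its lowest, median and highest level were 78843, 103148 and 140792 CPM in astrocytes (9 libraries), 57352, 77139 and 109048 CPM in OPCs (6) and 58050, 74226 and 97651 CPM in pericytes or mural cells (7). These were followed by oligodendrocytes with a median of 59882 CPM, inhibitory neurons with 49642 CPM and excitatory neurons with 45105 CPM. Microglia had 39065 CPM, endothelial cells 36891 CPM and other immune cells 22553 CPM (4 libraries). Within a library astrocytes were above excitatory neurons in 9 of 9 (median log2 difference 1.10), above OPCs in 6 of 6 (0.43) and above microglia in 6 of 6 (1.42). Excitatory neurons and endothelial cells did not hold an order, with 5 of 10 libraries each way. Inhibitory neurons were above excitatory neurons in 4 of 9. Microglia were above endothelial cells in 0 of 6 libraries with both, the reverse of their medians, which come from 6 and 10 libraries. Thinned to 300 UMIs a barcode, at least 83.3% of the barcodes of any class and library held a Malat1 UMI.

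The spread of Malat1 between libraries within a class was wide. In excitatory neurons it was 64569 and 15105 CPM in BCD/Sal (mice 9901 and 9947), 31006, 45241 and 59626 CPM in BCD/Ket, 50946 and 29135 CPM in CORT/Sal, and 43861, 44969 and 63902 CPM in CORT/Ket. Both BCD/Sal libraries thus lay at the ends of the whole range. Mouse 9947 was lowest again in inhibitory neurons, at 14903 CPM against 30596 to 70010 CPM in the other 8 libraries.

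Neat1 ran opposite to the neuronal members. It was highest in oligodendrocytes, the myelin-forming cells, at 889, 1168 and 1860 CPM (lowest, median and highest of 8 libraries). Other immune cells had a median of 730 CPM, endothelial cells 729 CPM, astrocytes 501 CPM and pericytes or mural cells 276 CPM. It was low in microglia (56.1 CPM), OPCs (48.0 CPM), excitatory neurons (20.7 CPM) and inhibitory neurons (18.4 CPM). Oligodendrocytes exceeded OPCs, the cells they mature from, in 6 of 6 libraries by a median log2 difference of 4.35, and exceeded endothelial cells in 8 of 8 by 0.62. Other immune cells, which were led by macrophage genes such as Mrc1 and Pf4, exceeded microglia in 4 of 4 libraries by 3.602. Other immune cells and endothelial cells had close medians. The range of OPCs overlapped those of microglia and of both neuron classes. Microglia, at 43.4 to 135 CPM, lay above the range of inhibitory neurons, 0 to 40.6 CPM. Within a library microglia exceeded OPCs in 6 of 6, and OPCs exceeded excitatory neurons in 5 of 6.

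Meg3 was highest in inhibitory neurons. There its level was 11534, 34343 and 59309 CPM (lowest, median and highest of 9 libraries), and in excitatory neurons it was 10675, 19037 and 35600 CPM (10 libraries). Inhibitory neurons exceeded excitatory neurons within 9 of 9 libraries, by a median log2 difference of 0.49, although the ranges of the classes overlapped. OPCs came next at 1307, 2145 and 3173 CPM, below excitatory neurons in 6 of 6 libraries by 3.49 and above microglia in 6 of 6 by 2.69. Thinned to 300 UMIs, a median of 92.7% of excitatory barcodes, 44.7% of OPCs and 2.84% of endothelial cells held a Meg3 UMI. Without thinning, at median depths of 1558, 1310 and 1178 UMIs, the shares were 95.6%, 87.0% and 14.1%.

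Pericytes or mural cells followed OPCs in the order of the Meg3 medians. Their level was 138, 659 and 1612 CPM (lowest, median and highest of 7 libraries), and 60.5% to 92.6% of barcodes held a Meg3 UMI in 6 of the libraries, against 9.09% of 11 barcodes in mouse 9946. Thinned to 300 UMIs the median share was 28.6%. Snhg11 had a median of 23.9 CPM in the same class.

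In the other glial and vascular classes the Meg3 level differed widely between libraries. It reached 1426 CPM in astrocytes, 4360 CPM in oligodendrocytes, 2455 CPM in microglia and 1551 CPM in endothelial cells, each of these in mouse 9901, the library with the most excitatory barcodes (429). The medians were 99.4, 92.6, 453 and 163 CPM. In oligodendrocytes of mouse 9946 and in astrocytes of mice 9946 and 9947 it was listed at 0.

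Snhg11 ran with Meg3 in neurons and OPCs. It was at 4436, 13120 and 17773 CPM in inhibitory neurons, 4434, 7924 and 9323 CPM in excitatory neurons and 353, 717 and 1106 CPM in OPCs. Inhibitory neurons exceeded excitatory neurons in 9 of 9 libraries by 0.58. The number of Meg3 UMIs per Snhg11 UMI had a median of 2.89 in excitatory neurons (range 2.36 to 4.19), 2.81 in inhibitory neurons, 3.12 in OPCs, 2.63 in astrocytes, 2.58 in oligodendrocytes, 3.33 in microglia and 2.75 in endothelial cells. In that order these medians rest on 10, 9, 6, 6, 4, 5 and 6 libraries. Libraries with few Snhg11 UMIs gave no ratio, such as oligodendrocytes of mouse 9946 with 0 Meg3 and 6 Snhg11 UMIs. Pericytes or mural cells departed from these ratios, with 133 Meg3 and 50 Snhg11 UMIs in mouse 9901 (2.66) but 77 and 13 in mouse 9971 (5.92). In mice 9949, 9986, 9969 and 9968 they held 64 to 78 Meg3 UMIs beside 2 to 4 of Snhg11. The ratio of Meg3 to Snap25, a synaptic mRNA, was less even, with medians from 7.25 in microglia to 37.6 in inhibitory neurons. Whether free neuronal RNA contributed to the UMIs of the glial and vascular classes was not tested.

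Miat differed from Meg3 and Snhg11 in the order of the neuron classes. It was at 250, 714 and 981 CPM in excitatory neurons and 168, 515 and 811 CPM in inhibitory neurons, with inhibitory neurons higher in 1 of 9 libraries (median log2 difference -0.55). OPCs had 98.0, 129 and 204 CPM, above microglia in 6 of 6 libraries by 2.96 and above oligodendrocytes in 6 of 6. The median was 8.73 CPM in microglia, 6.38 CPM in astrocytes, 5.76 CPM in endothelial cells and 0 in oligodendrocytes, where 2 UMIs were counted in 370 barcodes. In excitatory neurons a median of 64.7% of barcodes held a Miat UMI (23.4% after thinning), against 0.976% in endothelial cells.

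Within the neuron classes the members also varied. Excitatory neurons consisted of a cluster led by Slit3, Cpne7 and Neurod2 with Slc17a7 among its markers (886 barcodes) and a cluster led by Slc17a6, Cartpt and Tbr1 (240 barcodes). Malat1, Meg3, Miat and Snhg11 were higher in the first in 6 of 6 libraries with both, by median log2 differences of 0.49, 1.06, 1.58 and 0.84. Miat was itself among the 10 leading genes of the first cluster, with a median of 1150 CPM against 355 CPM in the second. Median UMIs per barcode were 1136 in the first and 4164 in the second.

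Inhibitory neurons consisted of a cluster led by Vip, Sst and Npy, markers of interneurons (151 barcodes), and a cluster with Penk and Drd2, genes of striatal projection neurons, among its leading genes (149 barcodes). Meg3, Miat and Snhg11 were higher in the first in 5 of 5 libraries, by 0.76, 0.57 and 0.59. Malat1 was higher there in 1 of 5 libraries (-0.31). The order of the neuron classes did not hold for every pair of clusters. Meg3 was higher in the Slc17a7 cluster than in the Penk and Drd2 cluster in 4 of 5 libraries (0.16). Against the Vip cluster it was higher in 1 of 5 (-0.58). Miat in the Slc17a6 cluster exceeded each inhibitory cluster in 3 of 6 libraries (-0.22 and 0.06). In the Slc17a7 cluster Miat exceeded each of them in 5 of 5. Astrocytes also fell into a pair of clusters, and Meg3 and Snhg11 were lower in the one led by Cldn10, Gldc and Aldoc than in the one led by Atp13a4 and Etnppl in 6 of 6 libraries, by -1.84 and -1.21, while Malat1 was lower there in 4 of 6.

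The genes most like each member were sought over 69 sums of a class in a library, by Pearson correlation of log2(CPM + 10) among 4895 genes that averaged at least 50 CPM. These sums share libraries and classes, and the values are descriptive. Meg3 was most like Snhg11 (r = 0.95), B230334C09Rik (0.92) and Celf4 (0.92), an RNA-binding protein of neurons. Miat was most like Frrs1l, Slitrk4 and Celf5, each at 0.96. Snhg11 was most like Nsg2 (0.95), Meg3 (0.95) and B230334C09Rik (0.94), and Neat1 was most like Glul (0.81), the glutamine synthetase gene, Plin3 (0.80) and Selenop (0.80). Malat1 had the weakest partners, Plxnb1 (0.75), Rgma (0.75) and Plpp3 (0.74). Among the members, Meg3 and Miat were at 0.89 and Miat and Snhg11 at 0.90, Neat1 was at -0.83 with Miat and -0.77 with Meg3, and Malat1 lay between -0.08 and 0.15 with all 4.

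Of the other genes of the imprinted domain, Mirg, Dlk1, Dio3 and Rtl1 were measured. The median of Mirg was 267 CPM in excitatory neurons, 465 CPM in inhibitory neurons and 19.8 CPM in OPCs, and 0 to 1.43 CPM in the remaining classes, the order that Meg3 showed. The median of Dlk1 was at most 1.67 CPM in any class, that of Dio3 at most 1.10 CPM, and Rtl1 was at 0 throughout.

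In the unnamed cluster of mouse 9970, Malat1 was at 25013 CPM, Meg3 at 11583 CPM, Miat at 398 CPM, Snhg11 at 3904 CPM and Neat1 at 139 CPM. The first 3 lay within the ranges of both excitatory and inhibitory neurons over the libraries. Snhg11 lay under the lowest level of each, 4434 and 4436 CPM. Neat1 lay above the range of inhibitory neurons, at most 40.6 CPM, and within that of excitatory neurons. For Neat1 the top of that range, 190 CPM, came from 2 UMIs in excitatory neurons of mouse 9970 itself. The next highest library was mouse 9968 at 82.3 CPM, below the cluster. Bc1 was at 2854 CPM, near the 2930 CPM that was its median over 25% mitochondrial in the other libraries. Camk2a was at 1743 CPM, below its median of 4849 CPM there, and Malat1 was above its own of 13206 CPM. The cluster entered none of the class levels.

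Whether CORT or ketamine changed the members was tested on UMI sums per mouse and class with edgeR's quasi-likelihood test, all 4 groups in 1 fit per class. All 4 contrasts were possible in excitatory neurons and endothelial cells, and 1 or 2 in each of the other 6 classes, 17 in all. None of the 72 tests of a member passed an adjusted p of 0.05, and 4 had an unadjusted p under 0.05. Over the same 17 contrasts edgeR called 36 genes and DESeq2 12, with p-values adjusted over all genes of a contrast, and DESeq2 called no member either. With 2 or 3 mice a group, a p that misses the threshold does not show that a member was unchanged.

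In excitatory neurons the share of all genes called was 0% in each contrast (0 of 6452), with 197 genes at an unadjusted p under 0.05 in edgeR for CORT/Sal against BCD/Sal, 143 for CORT/Ket against CORT/Sal, 51 for BCD/Ket against BCD/Sal and 136 for CORT/Ket against BCD/Ket. DESeq2 also called 0 in each. The member effects there ran from -0.67 to 0.55 on the log2 scale. For CORT/Sal against BCD/Sal, Malat1 was at -0.24 (SE 0.649), Meg3 at -0.67 (SE 0.600), Miat at -0.30 (SE 0.560) and Snhg11 at -0.19 (SE 0.547), each with an edgeR adjusted p of 0.999. Without mouse 9901, which left mouse 9947 alone in BCD/Sal, these effects were 1.11, 0.38, 0.84 and 0.29, so their direction turned with that library. The direction for Malat1 also turned without mouse 9970, at 0.29. For CORT/Ket against CORT/Sal the effects of these genes, in the same order, were 0.55, 0.43, 0.52 and 0.36.

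**Figure D5:**
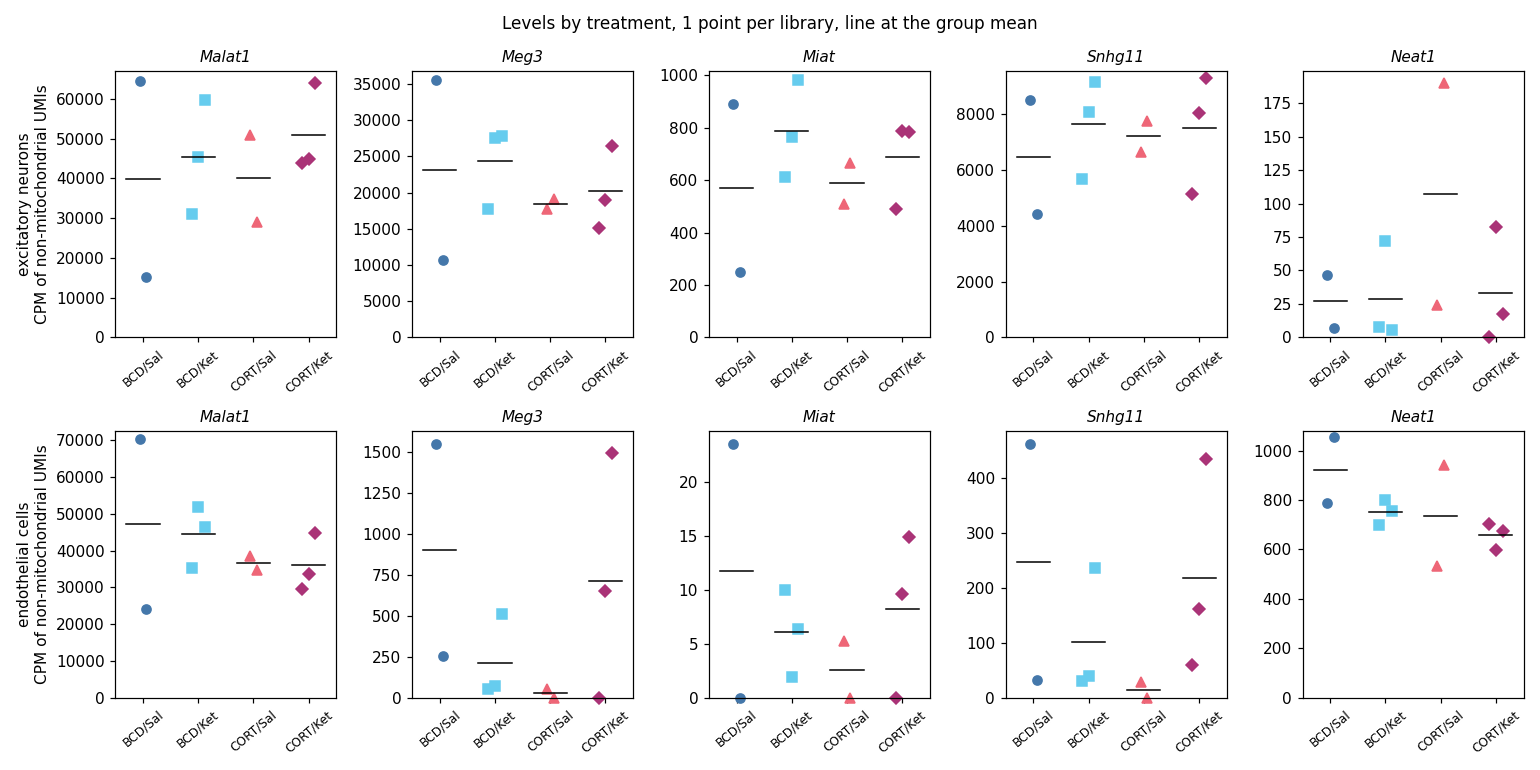
Level of each analysed member (CPM, linear axis from 0) in excitatory neurons, upper row, and endothelial cells, lower row, by treatment group, 1 point per library and a line at the group mean. In excitatory neurons the groups overlapped for Malat1, with BCD/Sal at 15105 and 64569 CPM enclosing all other groups, and in endothelial cells Meg3 ran from 0 to 1551 CPM with the highest points in mice 9901 and 9971.

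In inhibitory neurons 0% of 2778 genes were called in either contrast (26 and 20 genes at an unadjusted p under 0.05 in edgeR, 0 called by DESeq2), and member effects ran from -0.27 to 0.38. In microglia 0% of 6232 genes were called for CORT/Ket against BCD/Ket (151 unadjusted, 0 by DESeq2). Neat1 in microglia was at 134 and 50.5 CPM in BCD/Ket (mice 9949 and 9986) and 43.4 and 59.3 CPM in CORT/Ket (mice 9968 and 9971), a log2 effect of -1.0 (SE 0.427, edgeR adjusted p = 1.00). The groups overlapped, and without mouse 9949 the effect was 0.055. In pericytes or mural cells 0% of 4107 genes were called (124 unadjusted, 0 by DESeq2), and Snhg11 was at 1.81 (SE 0.878, edgeR adjusted p = 1.00).

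In astrocytes 1 of 8721 genes was called in each contrast (0.0115%). Snhg11 differed by -1.99 between BCD/Ket and BCD/Sal (SE 0.602, edgeR adjusted p = 0.507), and Meg3 by -1.74 (SE 0.786, edgeR adjusted p = 1.00). Snhg11 was at 501 and 0 CPM in BCD/Sal (mice 9901 and 9947) and at 0, 37.5 and 173 CPM in BCD/Ket (mice 9946, 9949 and 9986), so the groups overlapped and mouse 9901 set the direction. Malat1 and Neat1, which astrocytes do express, were at 0.19 (SE 0.915) and -0.07 (SE 0.830) in that contrast. In oligodendrocytes 1 of 3427 genes was called in each contrast (0.0292%). Meg3 there was at 4360 and 37.2 CPM in BCD/Sal and at 0, 131 and 396 CPM in BCD/Ket, with a fitted effect of -3.66 (SE 1.85, edgeR adjusted p = 0.958), and again mouse 9901 stood alone at the top. In OPCs 21 of 4949 genes were called (0.424%), each lower in CORT/Ket than in BCD/Ket, and none was a member. Member effects in OPCs ran from -0.32 to 0.40.

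Fitted effects in endothelial cells were large and rested on few UMIs. Meg3 was at 1551 and 255 CPM in BCD/Sal (mice 9901 and 9947), 49.9, 71.6 and 509 CPM in BCD/Ket (mice 9946, 9949 and 9986), 52.0 and 0 CPM in CORT/Sal (mice 9969 and 9970), and 0, 649 and 1495 CPM in CORT/Ket (mice 9967, 9968 and 9971). The value of 0 in mouse 9970 rests on 11 barcodes with 3192 UMIs, where counting error allows up to 1156 CPM (exact Poisson interval). For CORT/Sal against BCD/Sal, 6 of 6352 genes were called (0.0945%), and Meg3 was at -4.26 (SE 2.15, edgeR adjusted p = 0.815) and Snhg11 at -3.50 (SE 1.54, edgeR adjusted p = 0.765). With 1 library left out Meg3 ran from -10.58 (without mouse 9969) to -2.11 (without mouse 9901). For CORT/Ket against CORT/Sal the effects were 3.99 and 3.20 (edgeR adjusted p = 1.00 for both), and 2.18 and 1.78 without the highest Scrublet doublet scores. With 1 library left out they ran from 3.08 to 10.31 and from 2.33 to 8.69, highest without mouse 9969 and lowest without mouse 9971. In that contrast 0% of genes were called (127 unadjusted, 0 by DESeq2). For BCD/Ket against BCD/Sal 0% were called (193 unadjusted, 0 by DESeq2), and for CORT/Ket against BCD/Ket 5 genes were (0.0787%), no member among them.

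A dendritic transcript was called between endothelial groups by edgeR, not by DESeq2. Among the dendrite-localized RNAs, Bc1 was called by edgeR in endothelial cells, lower with CORT than with vehicle under saline (log2 effect -3.28, SE 0.782, edgeR adjusted p = 0.0288). It was the only edgeR call among the genes of the lists in the 17 contrasts. For CORT/Sal against BCD/Sal in endothelial cells DESeq2 called 0 of 6352 genes, and the CORT/Sal library of mouse 9970 held 11 such barcodes with 3192 UMIs. The median of the 5 list genes tested there was -2.13, with 1 of 5 called, and that of 4 neuronal mRNAs was -1.36, with 0 called, against -0.06 over all genes. In mouse 9968 the 202 Meg3 UMIs of endothelial cells lay in 16.5% of the 103 barcodes. The part of neuronal RNA in the endothelial difference was not tested. Whether the ketamine effect differed with CORT was tested as an interaction in both classes, where edgeR called 0 genes (100 unadjusted in excitatory neurons and 244 in endothelial cells). Meg3 and Snhg11 in endothelial cells had an edgeR adjusted p of 0.997.

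Among barcodes over 25% mitochondrial, 0% of 12584 genes were called in either of the 2 contrasts that had enough libraries (BCD/Ket against BCD/Sal with 62 genes unadjusted in edgeR and CORT/Ket against BCD/Ket with 66, and 0 by DESeq2 in both). None of the 10 member tests passed, and effects ran from -0.78 to 0.27. For Malat1, BCD/Ket against BCD/Sal was at 0.23 (SE 1.15, edgeR adjusted p = 1.00), and the effect was -0.06 without mouse 9901 and -0.35 without mouse 9946.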

How the data were processed

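The authors captured dissociated cells on the 10x Chromium platform, aligned reads to mm9 and counted UMIs with Cell Ranger, and deposited raw counts per gene and barcode. Per the file headers its version was 3.0.2. Their annotation was not given in the sources used here. Seurat 3.1.1 is named for their own analysis.

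Members and lists were chosen with earlier results of these data known. Only the 10 BLA libraries were used. Counts were scaled to CPM of non-mitochondrial UMIs. Barcodes with at least 200 genes and at most 12.5% mitochondrial UMIs were clustered in scanpy 1.11.5 (2000 variable genes without the members, 30 components, 20 neighbours, Leiden resolution 0.8) and named from at least 3 markers. No doublets were removed, and removal of the highest Scrublet scores was an alternative. Differences with mitochondrial share used log2(CPM + 10) per library. Treatment was tested on sums per mouse and class (at least 10 barcodes, at least 2 mice a group) with edgeR 4.0.16 (TMM factors, filterByExpr, robust quasi-likelihood, Benjamini-Hochberg over all genes), and with DESeq2 1.42.0 as an alternative. Steps were tested on simulated data. Shares were thinned to 300 UMIs, and intervals (exact, 95%) cover counting error only. Standard errors (SE) are the effect divided by the square root of its F statistic. Named genes were the members, the 3 genes most like each member, and genes of 9 lists, of which those given singly were chosen after their values were seen.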

Additional observations from a re-analysis of the deposited data

Results flagged for a closer look

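Barcodes under 200 genes entered no comparison. In these 1674 barcodes Malat1 made up 0.787% of 368020 non-mitochondrial UMIs, with 2898 Malat1 UMIs counted, which is above the limit that a count of 0 allows. Per library the share ran from 0.0497% in mouse 9969 to 1.5% in mouse 9946. The median mitochondrial share of these barcodes was 78.1%.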

How the results depend on the processing

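No paired analysis was possible because no BLA group shared a mouse number with another, and the prefrontal libraries of the same mice were not analysed here. For the mitochondrial comparison 74 of 85 alternative values stayed within the spread of the libraries and kept direction. With all UMIs as the denominator the differences became 1.85 for Meg3, 1.54 for Miat and 2.21 for Snhg11. Miat moved to 1.57 with at most 5% mitochondrial UMIs on the low side, to 1.98 with over 50% on the high side and to 1.91 in excitatory neurons, and Neat1 to 3.58 with over 50% on the high side. Chosen after seeing the data, the restriction to 1 class by marker UMIs reversed Meg3 (-2.15), Miat (-1.02) and Snhg11 (-1.99) in astrocytes and Neat1 (-0.11) in excitatory neurons. For the cell classes 80 of 81 alternatives stayed within the spread, and Miat in excitatory neurons over endothelial cells moved to 5.78 at most 5% mitochondrial.

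The number of members called was 2 with a fit on just the 2 groups compared, 2 with only the 6 libraries that held at least 10 microglia (chosen after seeing the data), and 0 to 8 with 1 library left out, against 0. The 36 genes called became 12 with DESeq2, 71 with no filter on low counts, 64 with only those 6 libraries, 14 at most 5% mitochondrial, 14 without the highest Scrublet scores and 10 to 65 with 1 library left out. A library left out was refitted only in the classes that held it. The lowest was without mouse 9970, where just the 8 contrasts in excitatory neurons and endothelial cells were refitted. In these the main fit called 6 and 5 genes in endothelial cells and 0 in excitatory neurons. That lowest count is therefore not comparable with the 36 of all contrasts. The highest was without mouse 9986. The cause was not tested. Numbers of genes tested in these settings are not given here, nor is the count of all genes for the fit on just the 2 groups. The member counts therefore do not show that members passed more often than other genes.

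Of 281 alternatives to 15 named effects, 258 kept direction and side. The 13 that passed the threshold were Meg3 and Snhg11 in endothelial cells. Meg3 for CORT/Sal against BCD/Sal passed with only the groups compared (-4.25, edgeR adjusted p = 0.0125) and without mouse 9986 or 9967, which belong to neither group. For CORT/Ket against CORT/Sal it passed without mouse 9986 or 9967. Snhg11 passed in CORT/Sal against BCD/Sal without mouse 9949, 9986 or 9971, all of neither group compared. In CORT/Ket against CORT/Sal it passed with only the groups compared (3.20) and without mouse 9986, again of neither group. The rest were fits without mouse 9947, for Meg3 in CORT/Sal against BCD/Sal and for Snhg11 in both contrasts. These fits left mouse 9901 alone in BCD/Sal, below the 2 mice a group required elsewhere, so they hold no spread within that group. The share of all genes called in the settings where members passed is not given here. With 1 library left out, Snhg11 in endothelial cells for CORT/Sal against BCD/Sal ran from -8.99 to 0.063 (the latter without mouse 9901). For that contrast in excitatory neurons, Malat1 ran from -1.26 to 1.11, Meg3 from -1.33 to 0.38, Miat from -0.97 to 0.84 and Snhg11 from -0.63 to 0.29, each highest without mouse 9901, and Malat1 was at 0.29 without mouse 9970. Snhg11 in astrocytes for BCD/Ket against BCD/Sal ran from -3.32 to 7.67, Neat1 in microglia from -1.51 to 0.055, and Malat1 over 25% mitochondrial for BCD/Ket against BCD/Sal from -0.35 to 0.62. A class level of 0 can rest on 3192 UMIs, as in endothelial cells of mouse 9970, or on 9056, as for Meg3 in astrocytes of mouse 9947.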
